A study of Mus musculus with 10 samples.

Results

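The BCL2 family members described here were the survival genes Bcl2, Bcl2l1 and Mcl1, the BH3-only genes Bcl2l11, Bmf, Bbc3 and Pmaip1, and the effector genes Bax, Bak1 and Bok. They were taken as all non-control probes that the array files name for these 10 genes, which gave 10 of 27191 gene names and 20 of 41174 probes. All 20 member probes were among the 22300 probes kept for testing, that is, well above background on both arrays of at least 1 group. Of the 5 groups, 3 were lymph node leukemias of the B cell lineage (B-ALL), from mice 686, 713 and 760, which were Ebf1+/- Pax5+/- (dHet-B-ALL). The dHet-proB group carried the same 2 heterozygous losses and was also Rag2-/-. These cells came from c-Kit+ fetal liver cells and were grown for a short time on OP9 feeder cells with 5 ng/ml IL-7, 10 ng/ml Flt3 ligand and 10 ng/ml SCF, the factor that binds Kit. The wt-proB group was Fraction BC, the pro-B stage, sorted from the bone marrow of control mice that were Ebf1+/+ Pax5+/+. Ebf1 and Pax5 encode transcription factors that set up and hold B cell identity. Each of the 5 groups had 2 one-colour arrays. The leukemias thus differed from the pro-B groups in organ and handling as well as in transformation, which cannot be told apart, and only the dHet-proB cells lacked Rag2 and had grown with added cytokines.

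BCL2 family proteins decide whether the outer mitochondrial membrane is opened to release cytochrome c and start apoptosis. BCL2, BCL-XL (the long product of Bcl2l1) and MCL1 keep the membrane closed by holding BAX and BAK1, which would form pores, and by trapping BH3-only proteins. The BH3-only proteins BIM (Bcl2l11), BMF, PUMA (Bbc3) and NOXA (Pmaip1) carry the death signal, and many of them are made in response to stress, loss of growth factors or activated p53. In early B cells IL-7 receptor signals sustain survival through this family, MCL1 is needed for pro-B cells to live, and BIM sets how readily lymphocytes die.

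Levels are log2 of the processed signal minus the 75th percentile of the same array, so 0 is that percentile, and levels of different probes cannot be compared. A change is a difference of group means on this log2 scale, given with its standard error (SE). Changes were called when limma's p, adjusted over all 22300 kept probes by the Benjamini-Hochberg method, was under 0.05. The leukemias entered as 3 mouse means against 2 pro-B arrays, and the pro-B groups as 2 arrays against 2. Between 35.7% and 52.4% of probes were well above background on each array, with the lowest share on replicate 1 of leukemia 686. Replicate 1 of all 3 leukemias lay on slide 1, replicate 2 of all 3 on slide 2 and the 4 pro-B arrays on slide 3, which was scanned on the same day as slide 2. Between leukemias and pro-B cells the slide cannot be told apart from the group, and calls altered by slide as a random block, by scan day as a block or by use of the shared scan day alone are given with each gene. Fits with slide, scan day or replicate as a block took the 10 arrays in place of mouse means. Their p-values thus rest on the spread between arrays of 1 mouse, not between mice. The 2 dHet-proB arrays came from different animals, since Xist, the RNA of the inactive X chromosome, was at -5.96 and 5.18 on them. On slide 1 Xist stood at -1.26 and -2.51 in leukemias 686 and 713, against -6.83 and -6.78 on slide 2, while Ddx3y, a Y-linked gene, was between 1.40 and 1.64 on all 4 of these arrays. In leukemia 760 Xist stood at 3.59 and 4.48, and Ddx3y at -3.13 on slide 1, against -6.34 on slide 2, so the 3 leukemias also differed in sex. Of 8 B lineage markers, all well above background on every array, 5 were lower and 2 higher in the leukemias against wt-proB. Against dHet-proB limma called 5 lower and 0 higher (0 also unadjusted). Over all genes at their brightest probe 27.6% were lower and 31.3% higher against wt-proB, and 24.5% and 21.8% against dHet-proB. The 8 markers summed to between 914 and 1135 in the leukemias, 1598 and 1842 in dHet-proB and 1009 and 1020 in wt-proB (linear scale). In these bulk samples fewer cells of a type and less RNA per cell cannot be told apart. The summed level of 7 measured T cell markers was between 11.4 and 65.0 in the leukemias, 9.97 and 13.1 in dHet-proB and 2.99 and 3.27 in wt-proB on the linear scale, with 4 to 6, 3 to 4 and 3 to 4 of them well above background. The 8 myeloid markers summed to between 12.2 and 129.2 in the leukemias, 18.6 and 20.9 in dHet-proB and 74.8 and 148.6 in wt-proB. The 6 natural killer cell and cytotoxic markers summed to between 4.01 and 40.9 in the leukemias, 1.30 and 2.06 in dHet-proB and 1.66 and 1.87 in wt-proB. The 4 measured erythroid markers summed to between 1.08 and 87.6 in the leukemias, 0.11 and 0.17 in dHet-proB and 1.30 and 1.79 in wt-proB. The part of these other cells in the results was not tested.

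Several members have probes at both ends of the transcript, and the probes listed next lie in coding sequence. They are shown because they read parts of the message that define the proteins, and because for 2 of them, Bak1 and Bcl2l1, the change in the leukemias against wt-proB differed from that at the brightest probe of the same gene. Each is 60 bases, printed 5′ to 3′ in the sense of the message as the array files give it, with mm9 coordinates. The capitals in Bcl2l11 mark the glycine and aspartate codons of the BH3 helix, the surface through which BIM binds its partners. The capitals in Bak1 mark the tryptophan, glycine and arginine codons of the BH1 motif that lines the binding groove.
Bcl2l11, chr2:127972893-127983988, plus strand, joined across an intron: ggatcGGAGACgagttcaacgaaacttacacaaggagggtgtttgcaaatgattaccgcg
Bak1, chr17:27158232-27158291, minus strand: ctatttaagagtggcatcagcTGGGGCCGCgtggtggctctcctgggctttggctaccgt
Bcl2l1, chr2:152655185-152655244, minus strand: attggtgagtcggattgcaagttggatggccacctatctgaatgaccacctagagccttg
Bmf, chr2:118358312-118358371, minus strand: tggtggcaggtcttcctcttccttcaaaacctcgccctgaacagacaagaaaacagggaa
Bcl2, chr1:108608970-108609029, minus strand: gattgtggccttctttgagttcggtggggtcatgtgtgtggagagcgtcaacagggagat

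The first question the groups pose is how the leukemias differ from normal pro-B cells. Of the 20 member probes, 11 were lower, 5 were higher and 4 were not called in the leukemias against wt-proB. Over all kept probes 58.7% were called in this comparison, 27.7% higher and 31% lower, so calls were common everywhere. Of all calls 47.2% were higher, beside 69.8% with array median scaling and 29.9% with the percentile taken over probes detected on all arrays. The median change of the member probes was -1.15, beside -0.07 over all kept probes. With 1 probe per gene it was -0.13, beside 0.06 over all genes, and over the 20 probes it was -0.47 in the authors' deposited value table, -0.52 with normexp and quantile normalization and -0.59 with array median scaling. The lower group held every probe of Bcl2l1, Mcl1 and Bmf and the only probe of Pmaip1, while the only probes of Bok and Bax were higher.

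**Figure D1:**
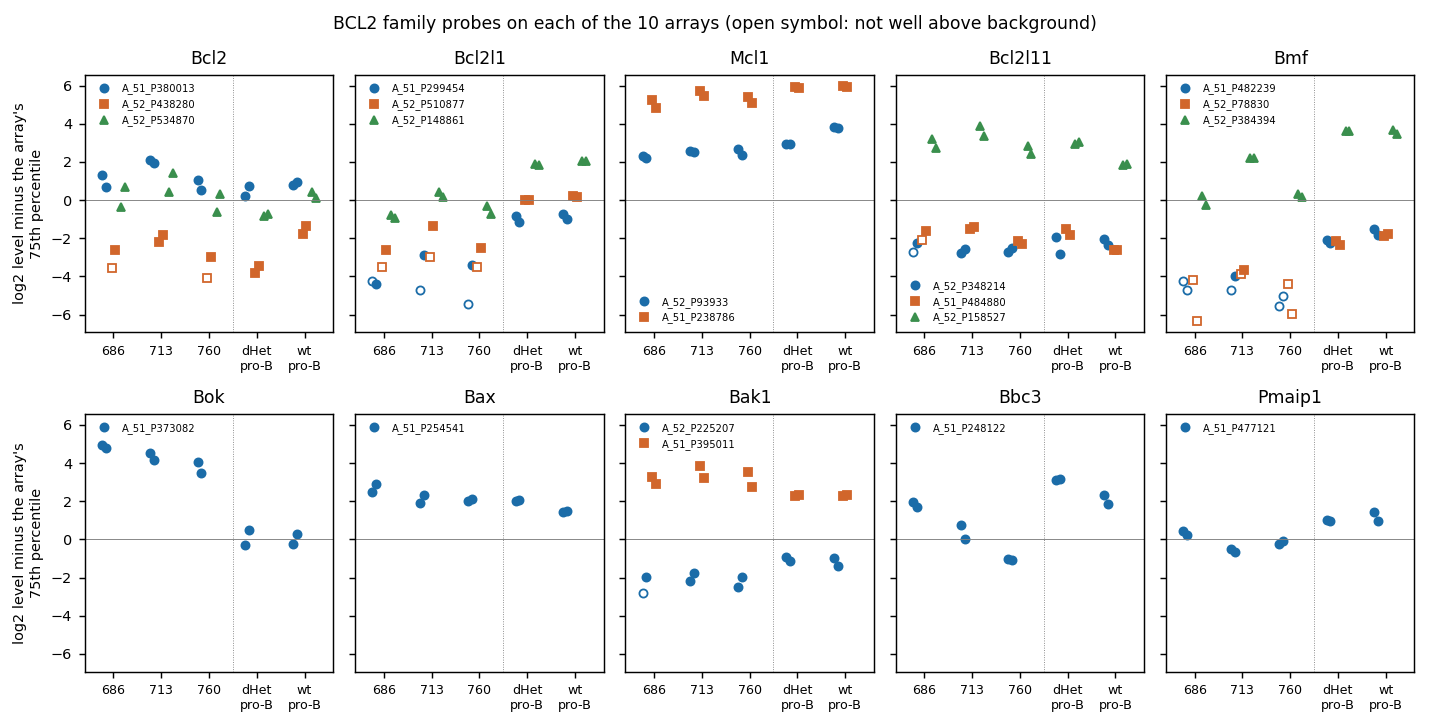
Level of each BCL2 family probe on each of the 10 arrays, as log2 level minus the array's 75th percentile (vertical axis), for leukemias 686, 713 and 760, dHet-proB and wt-proB (horizontal axis). Each symbol is 1 array, each colour 1 probe, and open symbols were not well above background. Bok lies between 3.48 and 4.95 in the leukemias and between -0.30 and 0.48 in the pro-B cells, and all Bcl2l1 and Bmf probes lie lower in the leukemias than in both pro-B groups.

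Among the survival genes, Bcl2l1 showed the largest decrease. Its 3′ probe, at base 2130 of the transcript record and averaged over up to 10 spots per array, stood at -0.79 and -0.96 in leukemia 686, 0.42 and 0.16 in leukemia 713 and -0.33 and -0.73 in leukemia 760. The same probe stood at 1.89 and 1.84 in dHet-proB and 2.04 and 2.07 in wt-proB. All 6 leukemia arrays thus lay below all 4 pro-B arrays, with leukemia 713 the highest of the 3. The change at this probe was -2.42 ± 0.34 against wt-proB (5.36-fold lower, adjusted p = 0.00195).

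The coding probe of Bcl2l1 at base 720 fell by 2.93 ± 0.29 against wt-proB (adjusted p = 0.000707). Its level was between -3.51 and -1.36 in the leukemias and 0.21 and 0.15 in wt-proB. The probe at base 175 fell by 3.32 ± 0.24 (adjusted p = 0.000322), but both of these 5′ probes were well above background only on the 3 leukemia arrays of slide 2. With undetected arrays raised to the dimmest detected level the changes were -2.70 at base 720 and -2.48 at base 175, and in the authors' deposited value table -1.37 and -1.11. With only the leukemia arrays that shared the scan day of the pro-B cells, the 3 Bcl2l1 changes were -2.70, -2.35 and -2.56 from 5′ to 3′. All 3 positions were lower in each of these settings, whereas the order of the 3 changes was not the same.

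Mcl1, whose protein turns over quickly and is needed by early B cells, was lower by less. Its brightest probe, at base 3240, read 5.27 and 4.82 in leukemia 686, 5.74 and 5.47 in leukemia 713 and 5.40 and 5.11 in leukemia 760. It read 5.92 and 5.86 in dHet-proB and 5.97 and 5.93 in wt-proB. No leukemia array reached the pro-B level, and the change against wt-proB was -0.65 ± 0.19 (1.56-fold lower, adjusted p = 0.0277). With array median scaling that change was -0.08 (adjusted p = 0.823), and with slide as a random block the adjusted p was 0.0735. The call was lost under 10 of 27 alternatives. These also included no filter on dim probes (0.0668) and leaving out mouse 686 (0.0509) or mouse 760 (0.0561). The probe at base 1928 fell by 1.35 ± 0.14 (adjusted p = 0.000827), with levels between 2.21 and 2.68 in the leukemias and 3.81 and 3.77 in wt-proB.

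Bcl2 itself gave no single answer. Its coding probe, printed above, stood at 1.31 and 0.67 in leukemia 686, 2.11 and 1.94 in leukemia 713 and 1.03 and 0.54 in leukemia 760, against 0.82 and 0.95 in wt-proB. Leukemia 713 lay above wt-proB and the other 2 leukemias overlapped it, and the change was 0.38 ± 0.40 (adjusted p = 0.438). The probe near the 3′ end of the longest record, at chr1:108434793-108434852 and averaged over up to 10 spots, changed by 0.03 ± 0.32 (adjusted p = 0.932). With scan day as a block, over arrays and not mice, it changed by 0.54 (adjusted p = 0.00979). Another probe, at chr1:108607310-108607369, lies between the other 2 on the minus strand and was designed on a separate cDNA record. It fell by 1.31 ± 0.45 (adjusted p = 0.0496), with 4 of 6 leukemia arrays well above background, and this call was lost under 18 of 25 alternatives, with adjusted p between 0.0555 and 0.214 there (0.0788 with slide as a random block, 0.0816 with only the leukemia arrays of the shared scan day).

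The BH3-only genes moved in different directions. Bcl2l11 (BIM) was higher at its 3′ probe, at base 4804, which read 3.19 and 2.72 in leukemia 686, 3.87 and 3.35 in leukemia 713 and 2.81 and 2.43 in leukemia 760, against 1.82 and 1.87 in wt-proB. Every leukemia array exceeded both wt-proB arrays, and the change was 1.21 ± 0.29 (2.32-fold higher, adjusted p = 0.0142). Without wt-proB replicate 1 or replicate 2 the adjusted p was 0.0784 and 0.0700. The BH3 coding probe of Bcl2l11 changed by 0.78 ± 0.25 (adjusted p = 0.0378), between -2.30 and -1.40 in the leukemias and at -2.62 on both wt-proB arrays. This call was lost under 11 of 25 alternatives. Among them were slide as a random block (adjusted p = 0.106), no filter on dim probes (0.0734) and mouse 686 left out (0.0777). With the percentile taken over probes detected on all arrays the change was 0.41 (0.190). The remaining Bcl2l11 probe, designed on another transcript record and crossing a splice junction within chr2:127954736-127955417, changed by -0.40 ± 0.28 (adjusted p = 0.267).

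Bmf, which encodes a BH3-only protein that in other cells is tied to the cytoskeleton and freed on loss of attachment, was lower at all 3 probes. The 3′ probe at base 4547 read 0.22 and -0.24 in leukemia 686, 2.23 and 2.21 in leukemia 713 and 0.33 and 0.15 in leukemia 760. It read 3.63 and 3.61 in dHet-proB and 3.68 and 3.45 in wt-proB. All 3 leukemias lay below the pro-B cells, leukemia 713 by the least, and the change against wt-proB was -2.75 ± 0.66 (6.72-fold lower, adjusted p = 0.0144). Without wt-proB replicate 1 or replicate 2 the adjusted p was 0.0826 and 0.0657. The coding probe fell by 3.01 ± 0.31 and the middle probe, at base 2089, by 2.90 ± 0.46, but both were well above background on only 1 of 6 leukemia arrays, replicate 2 of leukemia 713. With undetected arrays at the dimmest detected level these changes were -2.04 and -1.83, and in the authors' deposited value table -0.63 and -0.55. With slide as a random block the middle probe had an adjusted p of 0.0510.

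Pmaip1 (NOXA), a p53 target whose protein binds MCL1, fell by 1.32 ± 0.29 (2.50-fold lower, adjusted p = 0.0103). It read 0.43 and 0.25 in leukemia 686, -0.49 and -0.65 in leukemia 713 and -0.22 and -0.10 in leukemia 760, against 1.42 and 0.97 in wt-proB. The groups did not overlap, and without wt-proB replicate 1 the adjusted p was 0.0763. Bbc3 (PUMA), another p53 target and a potent activator of apoptosis, read 1.95 and 1.68 in leukemia 686, 0.73 and 0.02 in leukemia 713 and -1.01 and -1.06 in leukemia 760. Its wt-proB levels were 2.32 and 1.87. Leukemia 686 overlapped wt-proB, the other 2 lay below it, and the change over the 3 mice, -1.71 ± 0.78, was not called (adjusted p = 0.105). It was called lower under 6 alternatives. Those over arrays included slide as a random block (adjusted p = 0.0165), scan day as a block (-1.88, 0.000379) and the replicate block (0.000556). Arrays in place of mouse means without a block gave 0.000824. These p-values rest on the spread between arrays of 1 mouse, and not on that between the 3 mice. With mouse means it was called in the authors' deposited value table (-1.56, 0.0483). The remaining one left out mouse 686 (-2.42, adjusted p = 0.0132).

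Among the effectors, Bok changed most of all members. BOK is related to BAX and BAK1 but, by work in other cells, is kept in check by protein degradation rather than by the survival proteins. Its only probe read 4.95 and 4.81 in leukemia 686, 4.52 and 4.17 in leukemia 713 and 4.06 and 3.48 in leukemia 760. In dHet-proB it read -0.30 and 0.48 and in wt-proB -0.23 and 0.30. The lowest leukemia array, at 3.48, was far above the highest pro-B array, at 0.48, and the change was 4.29 ± 0.40 against wt-proB (19.6-fold higher, adjusted p = 0.000600). Over all 27 alternatives the change was between 3.70 and 4.86 and stayed past the threshold.

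Bax rose by 0.85 ± 0.22 against wt-proB (1.80-fold higher, adjusted p = 0.0185). Its probe, averaged over up to 10 spots, read 2.51 and 2.90 in leukemia 686, 1.93 and 2.30 in leukemia 713 and 2.0 and 2.13 in leukemia 760, against 1.42 and 1.47 in wt-proB. All leukemia arrays lay above wt-proB, leukemia 686 the furthest. The adjusted p was 0.0965 and 0.0822 without wt-proB replicate 1 or 2, 0.0681 with quantile normalization and 0.123 with the percentile taken over probes detected on all arrays.

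Bak1 was the only member with called changes in both directions. The 3′ probe, at base 1732 and chr17:27156967-27157026, read 3.25 and 2.93 in leukemia 686, 3.86 and 3.21 in leukemia 713 and 3.52 and 2.77 in leukemia 760, against 2.30 and 2.35 in wt-proB. The BH1 coding probe, at base 598, read -2.83 and -1.95 in leukemia 686, -2.16 and -1.77 in leukemia 713 and -2.48 and -1.95 in leukemia 760, against -0.97 and -1.41 in wt-proB. All leukemia arrays lay above wt-proB at the 3′ probe and below it at the coding probe, so the array gave no single direction for Bak1. The 3′ probe rose by 0.94 ± 0.17 (adjusted p = 0.00527) and the coding probe fell by 1.00 ± 0.20 (adjusted p = 0.00768). With slide as a random block the adjusted p was 0.0569 and 0.0942. The decrease at the coding probe was also not called with array median scaling (-0.44), with quantile normalization (-0.72), with normexp and quantile normalization (-0.35), in the authors' deposited value table (-0.35) or without wt-proB replicate 1 (-0.78).

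**Figure D2:**
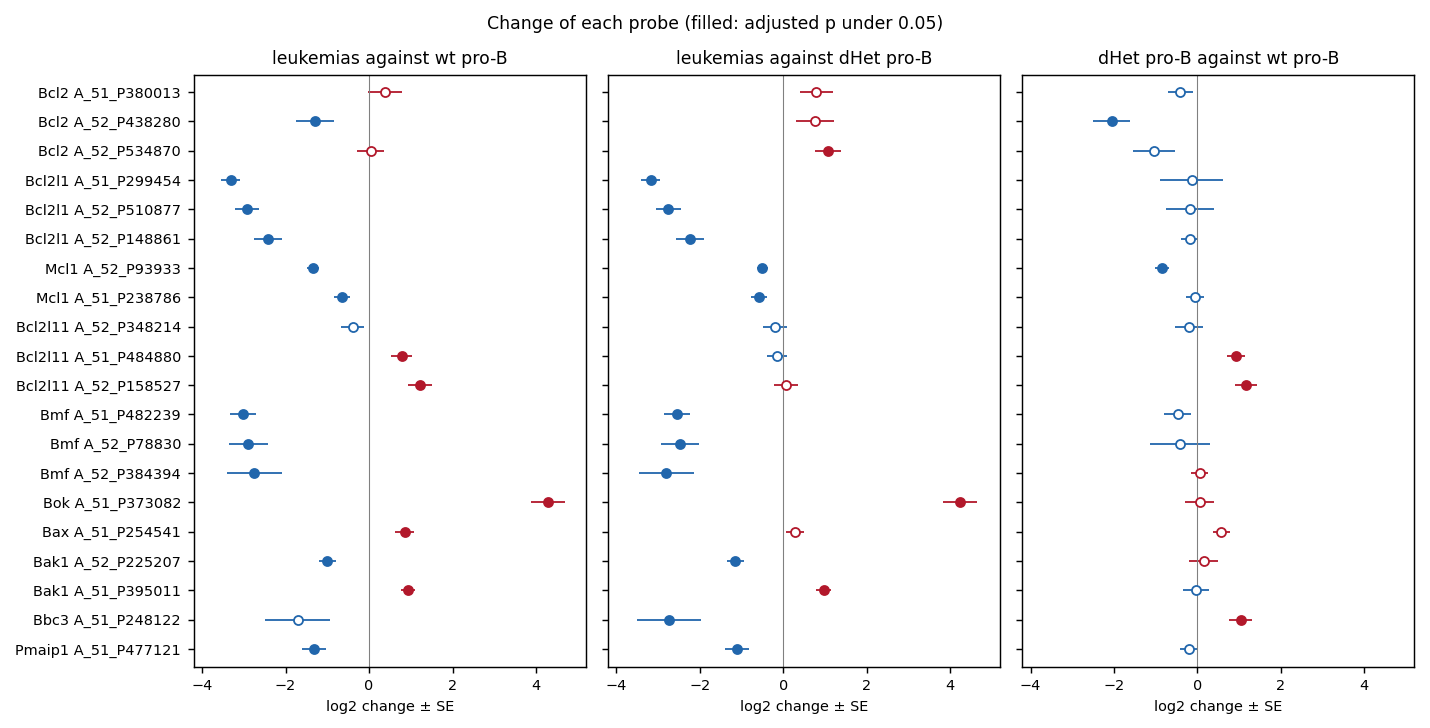
Log2 change ± SE (horizontal axis) of each BCL2 family probe (vertical axis, in 5′ to 3′ order within a gene) for the leukemias against wt-proB, the leukemias against dHet-proB and dHet-proB against wt-proB. Filled symbols had an adjusted p under 0.05, and red and blue mark changes above and below 0. Bok stands at 4.29 and 4.24 in the leukemia panels and at 0.05 between the pro-B groups, and the 2 Bak1 probes lie on opposite sides of 0 in both leukemia panels.

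Whether the probes of 1 gene changed unequally was tested as the change of each other probe minus that of the brightest probe of the gene. Of 10 member pairs, 6 differed in the leukemias against wt-proB, beside 46.9% of all 7845 pairs on the arrays, so unequal probes were common in this comparison. For Bak1 the change at the coding probe minus that at the 3′ probe was -1.94 ± 0.17 (adjusted p = 0.000687). The other unequal pairs were the cDNA-record Bcl2 probe (-1.69), the junction probe of Bcl2l11 (-1.61), both 5′ probes of Bcl2l1 (-0.90 and -0.51) and the upstream probe of Mcl1 (-0.70), each against the brightest probe of its gene. Against dHet-proB 3 of 10 pairs differed, the Bak1 pair (-2.11) and both Bcl2l1 pairs (-0.94 and -0.52), where 34.4% of all pairs did. Between dHet-proB and wt-proB limma called 0 of 10 member pairs and 3 had an unadjusted p under 0.05, where 3.16% of all pairs were called.

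A measured property of the arrays is set beside these differences. Over other genes with 2 kept probes on 1 transcript more than 2000 bases apart, the change at the 5′ probe minus that at the 3′ probe had a median of -0.50 in the leukemias against wt-proB and was below 0 in 72.7% of 1293 pairs. At more than 1000 and up to 2000 bases apart, the range that holds the Bak1, Bcl2l1 and Mcl1 pairs, the median was -0.32, and the middle 50% of pairs lay between -0.81 and 0.17. Among pairs well above background on all arrays these medians were -0.28 at over 2000 bases (469 pairs) and -0.13 at more than 1000 and up to 2000 bases (519 pairs). The Bak1 pair and the Bcl2l1 pair with the probe at base 175 lay below the middle range of all kept pairs in both leukemia comparisons. Between dHet-proB and wt-proB the median at over 2000 bases was -0.09. By array, the median 5′ minus 3′ level was taken over 1501 other transcripts with probes over 500 bases apart, all well above background. It was -1.19, -1.29 and -1.25 on the slide 1 arrays of leukemias 686, 713 and 760, and -1.05, -0.96 and -1.16 on slide 2. The pro-B arrays, all on slide 3, stood at -1.01 and -1.04 (dHet-proB) and -0.97 and -0.93 (wt-proB). The part of probe position in the results on the members was not tested.

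**Figure D3:**
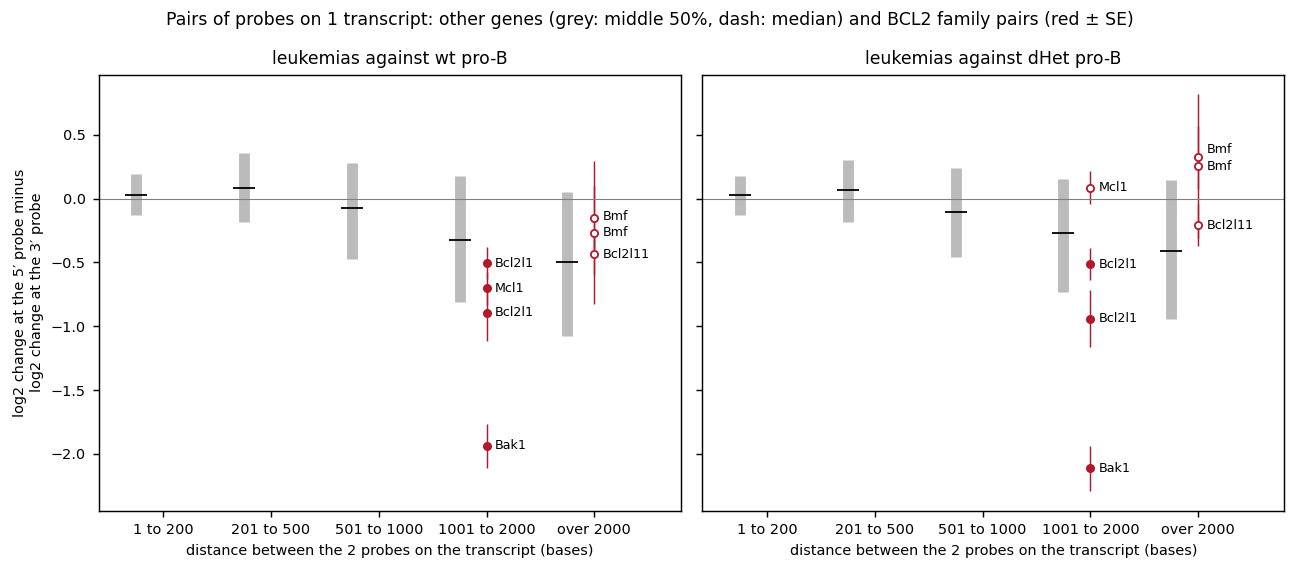
Change at the 5′ probe minus change at the 3′ probe of 1 transcript (vertical axis, log2) by the distance between the probes in bases (horizontal axis), for the leukemias against wt-proB and against dHet-proB. Grey bars span the middle 50% of pairs of other genes with a dash at the median, and red points are BCL2 family pairs ± SE, filled where the adjusted p was under 0.05. The medians move to -0.50 and -0.41 at over 2000 bases, and the Bak1 pair stands at -1.94 and -2.11.

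The second comparison sets the leukemias beside dHet-proB cells, which share the Ebf1 and Pax5 genotype. Here 11 of 20 member probes were lower, 3 were higher and 6 were not called, while 46.7% of all kept probes were called, 19.3% higher and 27.4% lower. Of all calls 41.4% were higher, beside 56.0% with array median scaling. The median change was -0.54 for the member probes and -0.15 for all kept probes. The same leukemia arrays enter this comparison and the one with wt-proB, so the changes are given side by side and their likeness is no separate result.

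Bcl2l1 was lower at all 3 probes, with changes of -3.18 ± 0.24, -2.75 ± 0.29 and -2.24 ± 0.34 from 5′ to 3′ (adjusted p = 0.000707, 0.00151 and 0.00409). With slide as a random block the first of these had an adjusted p of 0.0586. Bmf was also lower at all 3, with changes of -2.55 ± 0.31, -2.48 ± 0.46 and -2.80 ± 0.66 from 5′ to 3′ (adjusted p = 0.00220, 0.00814 and 0.0175). The call at the 3′ probe was lost without dHet-proB replicate 1 or 2 (adjusted p = 0.0895 and 0.0864). That at the middle probe was lost without dHet-proB replicate 1 (0.0587) and with slide as a random block (0.106). The 2 upstream Bmf probes were well above background on only 1 of 6 leukemia arrays, and the 2 upstream Bcl2l1 probes on 3 of 6. With undetected arrays at the dimmest detected level these changes were -1.57 and -1.41 for Bmf and -2.34 and -2.52 for Bcl2l1. Over 25 alternatives the smallest decreases were -0.52 and -0.42 for Bmf and -1.08 and -1.22 for Bcl2l1. Bok was 18.9-fold higher (4.24 ± 0.40, adjusted p = 0.00115). Bak1 again changed in both directions, with 0.97 ± 0.17 at the 3′ probe and -1.15 ± 0.20 at the coding probe (adjusted p = 0.00683 and 0.00677), and with slide as a random block 0.0707 and 0.0865. Without dHet-proB replicate 1 these calls were also lost (0.0551 and 0.0581), and without dHet-proB replicate 2 that at the 3′ probe (0.0503).

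Bbc3 was called in this comparison, since its dHet-proB levels were the highest of any group at 3.09 and 3.16. No leukemia array reached them, and the change was -2.74 ± 0.78 (6.68-fold lower, adjusted p = 0.0314). Without dHet-proB replicate 1 or 2 the adjusted p was 0.126 and 0.130, without mouse 713 it was 0.0592, and without either wt-proB array, which enters the shared spread, 0.0608. Pmaip1, at 1.00 and 0.97 in dHet-proB, fell by 1.12 ± 0.29 in the leukemias (adjusted p = 0.0242), with an adjusted p of 0.117 and 0.107 without dHet-proB replicate 1 or 2. Mcl1 changed by -0.50 ± 0.14 and -0.58 ± 0.19 at its 2 probes (adjusted p = 0.0323 and 0.0467), and these calls were lost under 10 of 26 and 15 of 27 alternatives, among them slide as a random block (adjusted p = 0.166 and 0.125).

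At the 3′ probe Bcl2 read -0.37 and 0.71 in leukemia 686, 0.40 and 1.40 in leukemia 713 and -0.61 and 0.33 in leukemia 760, against -0.81 and -0.71 in dHet-proB. All leukemia arrays lay above dHet-proB, the slide 2 array of each mouse above its slide 1 array, and the change was 1.07 ± 0.32 (2.11-fold higher, adjusted p = 0.0367). This call was lost under 12 of 26 alternatives, among them slide as a random block (adjusted p = 0.115). The other 2 Bcl2 probes changed by 0.79 ± 0.40 and 0.75 ± 0.45 (adjusted p = 0.151 and 0.219). With scan day as a block, over arrays and not mice, they were called higher (0.57 and 1.16, adjusted p = 0.0433 and 0.00511). So they were with the replicate block, also over arrays (0.0385 and 0.0232). The first was also called with arrays in place of mouse means (0.0371) and the second with only the leukemia arrays of the shared scan day (0.0473). Bax changed by 0.27 ± 0.22 (adjusted p = 0.341), and by 0.42 with scan day as a block over arrays (adjusted p = 0.0145). The 3 Bcl2l11 probes changed by -0.20, -0.15 and 0.06, with SE between 0.25 and 0.29 and adjusted p between 0.589 and 0.879, and leukemia 713 lay above dHet-proB at the BH3 and 3′ probes while leukemia 760 lay below it.

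The third comparison, dHet-proB against wt-proB, asks what the pro-B cells of the 2 genotypes show before leukemia, with organ, culture and Rag2 differing as well. Of 20 member probes 3 were higher, 2 were lower and 15 were not called, beside 27.2% of all kept probes called, 13.9% higher and 13.2% lower. Bcl2l11 was higher at 2 probes, Bbc3 was higher, and 1 probe each of Mcl1 and Bcl2 was lower. With 1 of the 4 pro-B arrays left out (dHet-proB replicate 1 or 2, wt-proB replicate 1 or 2), 1 group held 1 array. The member calls were lost in these fits, and calls over all kept probes also became fewer. The changes kept their direction, between 1.095 and 1.214 at the 3′ probe of Bcl2l11 and 0.77 and 1.09 at its BH3 coding probe. They were between 0.81 and 1.26 at Bbc3, -0.87 and -0.83 at this Mcl1 probe and -2.26 and -1.86 at this Bcl2 probe. Of all calls with every array kept 51.3% were higher. This share was 63.8% with array median scaling and 37.8% with the percentile taken over probes detected on all arrays.

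Bcl2l11 read 2.94 and 3.06 in dHet-proB at its 3′ probe, against 1.82 and 1.87 in wt-proB (1.15 ± 0.26, 2.23-fold higher, adjusted p = 0.0172). Its BH3 coding probe read -1.53 and -1.85 in dHet-proB, against -2.62 on both wt-proB arrays (0.93 ± 0.21, adjusted p = 0.0185). In the authors' deposited value table that change was 0.39 (adjusted p = 0.0661), and with normexp and quantile normalization 0.43 (0.0631). With the percentile taken over probes detected on all arrays it was 0.70 (0.0760). Bbc3 rose by 1.03 ± 0.28 (2.05-fold higher, adjusted p = 0.0320). The cDNA-record Bcl2 probe read -3.80 and -3.47 in dHet-proB, against -1.77 and -1.37 in wt-proB (-2.06 ± 0.44, adjusted p = 0.0144). Mcl1 at base 1928 read 2.94 and 2.93 in dHet-proB, against 3.81 and 3.77 in wt-proB (-0.85 ± 0.18, adjusted p = 0.0124), but with array median scaling the change was -0.50 (adjusted p = 0.321).

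No other member probe was called between the pro-B groups without a block. The 3′ probe of Bcl2 averaged -0.76 in dHet-proB and 0.28 in wt-proB, and its change of -1.04 ± 0.49 (adjusted p = 0.168) was called with slide or scan day as a block (adjusted p = 0.00178). The coding probe of Bcl2 changed by -0.41 ± 0.30. The brightest Mcl1 probe changed by -0.06 ± 0.22, and was called lower in the authors' deposited value table (-0.52, adjusted p = 0.0101) and with normexp and quantile normalization (-0.46, 0.0257). Bok changed by 0.05 ± 0.34, the 3 Bcl2l1 probes by -0.14 to -0.18, Pmaip1 by -0.21, the 2 Bak1 probes by 0.15 and -0.03 and the 3 Bmf probes by -0.47, -0.42 and 0.05. In the authors' deposited value table the 3′ probe of Bcl2l1 was called lower (-0.41, adjusted p = 0.0496). Bax changed by 0.58 ± 0.21 (adjusted p = 0.0845). With slide or scan day as a block, which again altered only the pooled spread, the adjusted p was 0.00765, and with the replicate block 0.0442.

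The 3 leukemias were also compared with each other, by an F test over the 10 arrays. Without a block, 3 of 20 member probes differed, beside 13.1% of all kept probes. Because replicate 1 and replicate 2 of the leukemias marked shared slides, and deviations of same-numbered leukemia arrays correlated at r between 0.440 and 0.633 across probes, slide was also fitted as a block. With it 12 of 20 member probes differed, beside 32.1% of all kept probes.

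Bbc3 separated all 3 leukemias, at 1.82 in leukemia 686, 0.37 in leukemia 713 and -1.03 in leukemia 760 (means of 2 arrays, adjusted p = 0.00251 without and 0.00101 with the block). The order was the same on slide 1 and on slide 2, with ranges of 2.96 and 2.74. Bmf at its 3′ probe stood at 2.22 in leukemia 713, against -0.01 in leukemia 686 and 0.24 in leukemia 760 (adjusted p = 0.00155 without and 0.000557 with the block). Bcl2l1 at its 3′ probe was also highest in leukemia 713, at 0.29, with -0.87 in leukemia 686 and -0.53 in leukemia 760 (adjusted p = 0.0201 without and 0.00171 with the block). This Bcl2l1 call was lost under 8 of 22 alternatives, among them array median scaling (adjusted p = 0.0588) and no filter on dim probes (0.128). The calls of Bbc3 and of Bmf at its 3′ probe were lost under 0 of 22.

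The other 9 probes that differed with the block were all 3 of Bcl2, the BH3 and 3′ probes of Bcl2l11, the Bcl2l1 probe at base 720, the brightest Mcl1 probe, Bax and Pmaip1. Leukemia 713 was highest on both slides at all 3 Bcl2 probes, at both of those Bcl2l11 probes, at the Bcl2l1 probe and at the Mcl1 probe. On slide 1, however, the Bcl2l1 probe was not well above background in any leukemia. The cDNA-record Bcl2 probe was not so in leukemias 686 and 760, nor the BH3 probe of Bcl2l11 in leukemia 686. Leukemia 686 was highest on both slides for Bax and Pmaip1. At these probes leukemia 713 had the highest levels of the survival genes Bcl2, Bcl2l1 and Mcl1 and also of the death genes Bcl2l11 and Bmf, whereas leukemia 686 led for Bbc3, Pmaip1 and Bax.

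**Figure D4:**
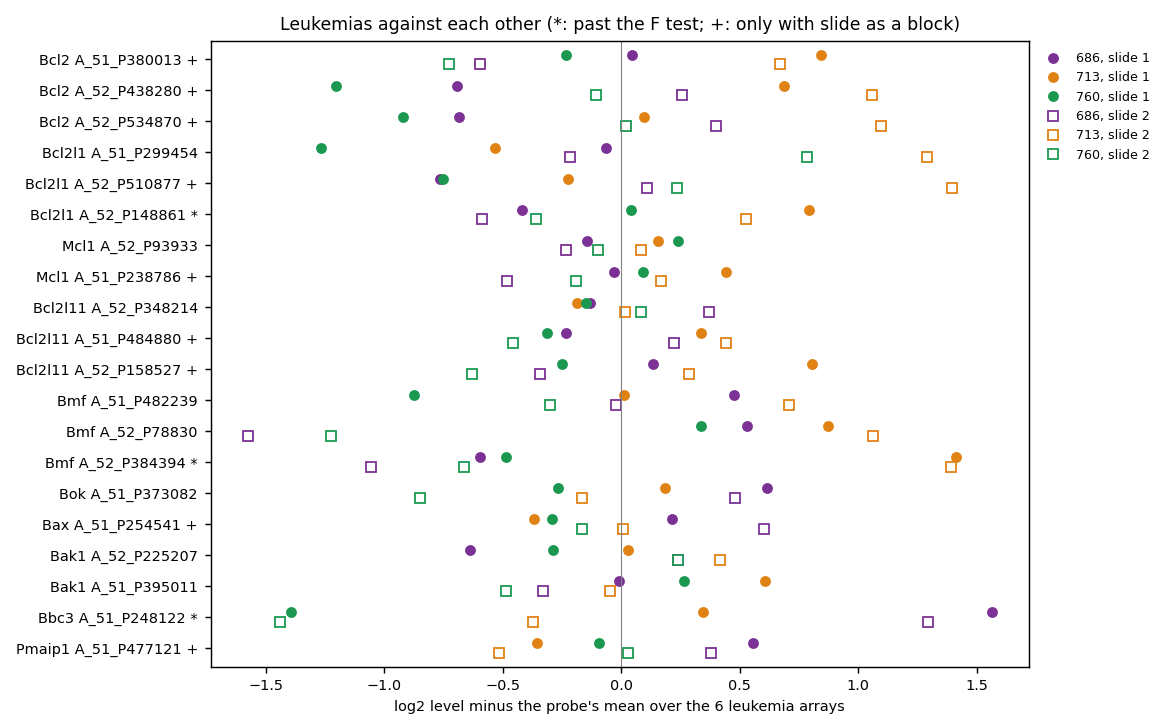
Level of each BCL2 family probe on each leukemia array minus the probe's mean over the 6 leukemia arrays (horizontal axis, log2), with filled circles for slide 1 and open squares for slide 2. Open symbols mark the slide here, and detection is not marked. An asterisk marks the 3 probes past the F test and a plus sign the 9 more that passed only with slide as a block. Bbc3 spreads the leukemias over 2.85 between the highest and the lowest mean, and at Bmf 3′ leukemia 713 lies above the other 2 on both slides.

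The 3 members with the widest range of group means at their brightest probe were Bok (4.84), Bbc3 (4.16) and Bmf (3.63). Over the 10 arrays and 12054 genes compared at 1 probe each, the patterns most like Bok were those of Tomm5 (Pearson r = 0.993), Parl (0.991) and Fads3 (0.988). Those most like Bbc3 were Zmat3 (0.952), itself known as a p53 target, Zc3h13 (0.946) and Dnmbp (0.945). Those most like Bmf were Natd1 (0.994), Gpr108 (0.986) and Sord (0.985). These correlations describe 10 arrays in 5 groups that share RNA source and slide, and they carry no test.

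Other genes of the apoptosis pathway are given as counts over lists of genes at their brightest probe, where 4 members were higher and 4 lower in the leukemias against wt-proB. Of all 14455 genes with a kept probe, 31.3% were higher and 27.6% lower at that probe. Of 16 other BCL2 relatives 11 had a kept probe, and of these limma called 5 higher and 0 lower (1 lower at an unadjusted p under 0.05), of 12 apoptosome and caspase genes 6 were higher and 1 lower, and of 6 mitochondrial partners 4 were higher and 1 lower. Of 5 inhibitor of apoptosis genes 1 was higher and 2 were lower, and of 14 regulators of MCL1, BIM, PUMA and NOXA 5 were higher and 4 lower. The median changes of these lists were 0.61, 0.63, 0.87, -0.18 and 0.0004, beside 0.06 over all 14455 genes. The highest called change was that of Myc (3.40 ± 0.34), a transcription factor of cell growth that can also prime cells for death, followed by Endog (3.21 ± 0.24), a mitochondrial nuclease. The lowest were Birc3 (-2.41 ± 0.25), an inhibitor of apoptosis in NF-kB signalling, and Ddit3 (-2.20 ± 0.27), the stress factor CHOP.

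Against dHet-proB 21.8% of all genes were higher and 24.5% lower at their brightest probe, and 2 members were higher and 5 lower. Here 6 other BCL2 relatives were higher and 3 lower, 4 apoptosome and caspase genes higher and 2 lower, and 3 regulators higher and 6 lower. By limma 3 mitochondrial partners were higher and 0 lower (1 lower at an unadjusted p under 0.05), and 0 inhibitor of apoptosis genes were higher (0 also unadjusted) and 3 lower. The lists' median changes were 1.13, 0.39, -0.16, 0.36 and -0.49 in this order, beside -0.06 over all genes. Myc was again highest (4.67 ± 0.34). Bcl2a1b, a copy of the survival gene BCL2A1, was not well above background on the dHet-proB arrays and at least 8.07-fold higher in the leukemias (adjusted p = 0.0143), but its probe may read near-identical family copies. Foxo3, which encodes a factor that switches on Bcl2l11 and Bbc3, was not well above background on any leukemia array and was at least 1.59-fold lower in the leukemias (adjusted p = 0.00166). Bnip3, a mitochondrial BCL2 relative induced by low oxygen, fell by 1.67 ± 0.34.

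In dHet-proB against wt-proB 15.6% of all genes were higher and 14.2% lower at their brightest probe. Here 2 other BCL2 relatives were higher and 4 lower, 1 apoptosome or caspase gene higher and 3 lower, and 2 regulators higher and 3 lower. By limma 1 mitochondrial partner was higher and 0 were lower (0 also unadjusted), and 0 inhibitor of apoptosis genes were higher (1 at an unadjusted p under 0.05) and 1 lower. The lists' median changes were 0.24, 0.64, 0.16, 0.39 and 0.31 in this order, beside 0.13 over all genes. Bnip3 (1.52 ± 0.38) and the survival gene Bcl2l2 (1.13 ± 0.16) rose most. Bcl2a1b and Bcl2a1c were at least 17.0-fold and 3.11-fold lower in dHet-proB, where neither was well above background (adjusted p = 0.000576 and 0.00347). Myeloid markers, whose summed level was also lower in dHet-proB than in wt-proB, are given above, and their part in the Bcl2a1 values was not tested.

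Promoter windows of 250 bases before to 50 after the start, from RefSeq on GRCm38.p6, were found for 9 of the 10 members in 16 windows. They were searched on both strands for CACGTG, the E-box that MYC binds, for TTCNNNGAA, the form bound by STAT5, and for TGTTTAC, a forkhead form. CACGTG was in 2 of 16 member windows, beside 7.15% of all 32851 windows, at -64 in Bbc3 and at -9 and 35 in Bax. TGTTTAC was in 2 of 16, beside 3.65%, at -227 in Bcl2l11 and -167 in Bbc3. TTCNNNGAA was in 0 of 16, beside 8.30%. The 250 bases before the Bax start are shown, with capitals on the E-box, because Bax was the only member with CACGTG on both sides of its start. Of the 2 genes with this motif, Bax was higher in the leukemias against wt-proB and not called against dHet-proB (Myc was higher in both), and Bbc3 was lower against dHet-proB. No binding was measured here.
Bax, GRCm38.p6, chr7:45466899-45467148, minus strand: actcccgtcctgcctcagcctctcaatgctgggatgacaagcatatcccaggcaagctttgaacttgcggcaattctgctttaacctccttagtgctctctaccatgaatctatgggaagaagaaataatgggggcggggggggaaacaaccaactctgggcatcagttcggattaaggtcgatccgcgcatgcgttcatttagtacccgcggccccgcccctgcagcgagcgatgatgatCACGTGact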

How the data were processed

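Cy3-labelled RNA of 10 samples was read on 1-colour Agilent arrays. Per the file headers, the deposited processed signals are intensity values from Feature Extraction 10.5.1.1, background-corrected within each array, and the submitters' processing notes name version 9.1. The mean and background signals, also deposited intensity values, are uncorrected. The authors' deposited value table holds log2 values with array medians between 6.83 and 6.85, and its background and centring are not given in the sources used here. Probe coordinates follow mm9, as the headers name it.

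Control and outlier spots were left out, spots of 1 probe were averaged and no spot was saturated. Where every spot of a probe was an outlier, 2 to 42 probes per array, its spots were kept. The log2 processed signal minus each array's 75th percentile was tested with limma 3.58.1 in R 4.3.3 (tables read with data.table, version 1.17.8) on 22300 probes. Leukemias against pro-B cells used 3 mouse means and 4 pro-B arrays (4 residual degrees of freedom), dHet-proB against wt-proB and the leukemias against each other the 10 arrays (5 residual degrees of freedom). What the 2 replicates of each group share is not given in the labels, so p-values may measure technical spread, and only 2 arrays per group limit the precision. A fold written "at least" sets the bright group's mean against the dim group's mean, with each dim array at the higher of its own level and its dimmest detected signal.

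Same-numbered arrays deviated together among the leukemias, which share slides (r between 0.440 and 0.633), and not with or between pro-B groups (r between -0.04 and 0.08). All member probes are named. For the other apoptosis genes the 2 highest and 2 lowest called changes per comparison are named, and for the 3 members of widest range the 3 genes of highest Pearson r. The members and lists were chosen with earlier results of these data known. The fits were tested on simulated data. Alternatives were other background corrections, scalings and filters, slide, scan day and replicate number as blocks, and each array or mouse left out.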

Additional observations from a re-analysis of the deposited data

Results flagged for a closer look

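In 3 probes the change differed between the leukemias by the F test itself. These were Bbc3 (adjusted p = 0.00251), Bmf at its 3′ probe (adjusted p = 0.00155) and Bcl2l1 at its 3′ probe (adjusted p = 0.0201), with the group means given above. The Bcl2l1 call was lost under 8 of 22 alternatives, and the Bbc3 and Bmf calls under 0 of 22.

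At 2 Bcl2l11 probes both arrays of leukemia 713 lay above, and both arrays of leukemia 760 below, the 2 dHet-proB arrays. The share of all kept probes with this pattern was not counted. The F test among the leukemias did not pass for these probes, with an adjusted p of 0.123 at the BH3 coding probe and 0.101 at the 3′ probe. With slide as a block it passed (0.0466 and 0.00287), beside 32.1% of all kept probes.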

How the results depend on the processing

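Of 1888 values of single member probes under other settings, 1682 kept their side of the threshold, 148 lost the call, 58 gained one and 0 called values changed sign. Of the 556 values that were called in neither setting, 51 changed sign. Array median scaling moved the median change of all kept probes in the leukemias against wt-proB to 0.49, beside -0.07, and each change is relative to that shift. Over 25 alternatives the change against wt-proB ranged between -3.38 and -0.63 at the dim Bmf coding probe, -3.48 and -0.55 at the middle Bmf probe, -3.68 and -1.11 at the Bcl2l1 probe at base 175 and -3.29 and -1.37 at that at base 720. The cause of the changed counts below was not tested. Counts over all kept probes moved as well. Against wt-proB their 6182 higher calls became 3996 with the percentile over probes detected on all arrays and 3805 with slide as a block. Against dHet-proB their 4314 higher calls became 2339 with slide, 5535 with scan day and 4965 with the replicate block. Among the leukemias their 2929 calls became 7169 with slide as a block, 3142 in the authors' deposited value table and 2716 with quantile normalization.

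Leukemias against wt-proB: 5 higher probes became 3 with the percentile over probes detected on all arrays and 3 with slide as a block, and 2 to 5 with 1 array or mouse left out. The 11 lower probes became 5 of 12 when only probes detected on all arrays were tested, 4 of 10 with 1 probe per gene, and 6 to 11 with 1 array or mouse left out. Leukemias against dHet-proB: 3 higher probes became 1 with slide, 6 with scan day and 5 with the replicate block, and 1 to 3 with 1 left out. The 11 lower probes became 6 with probes detected on all arrays, 5 with 1 probe per gene, 6 with slide as a block, and 4 to 11 with 1 left out. dHet-proB against wt-proB: 3 higher probes became 0 without a filter (limma) and 0 to 3 with 1 array left out. The 2 lower probes became 1 with array median scaling, 4 in the authors' deposited value table, 0 without a filter, 1 with probes detected on all arrays, 0 with 1 probe per gene, and 0 to 2 with 1 array left out. Among the leukemias 3 probes became 6 with normexp and quantile normalization, 5 with quantile normalization, 5 with the percentile over detected probes, 7 in the authors' deposited value table, 5 with probes detected on all arrays, 12 with slide or scan day as a block and 5 with the replicate block, and 2 to 4 with 1 array left out. Unequal pairs against wt-proB: 6 became 1 of 2 with probes detected on all arrays and 3 to 6 with 1 array left out. Against dHet-proB: 3 became 5 in the authors' deposited value table, 0 of 2 with probes detected on all arrays, 1 with undetected arrays at the dimmest detected level, and 1 to 3 with 1 array left out. With only the leukemia arrays of the shared scan day, a choice made after seeing the data, the counts were 5 higher and 10 lower against wt-proB and 4 higher and 11 lower against dHet-proB. The replicate block moved no other count by over 1.5 times.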
